A study of Mus musculus with 8 samples.

Results

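The genes described here are 8 neighbors on mouse chromosome 18, namely Usp14, Esco1, 4930563E18Rik, Gm6277, Cables1, Gm49968, Npc1 and Gm49970. They are 8 of the 18058 genes listed in the deposited table, and they were chosen by name from the comparison of quadruple KO with WT retinae, in which they had differed and lay close together. Their differences between the genotypes are therefore given as a description, and where a fit is cited for them it is not read as a test. All 8 reached a mean of 10 normalized counts over the libraries and entered the fit of 17636 genes.

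Total RNA was sequenced from retinae of adult mice, with 4 libraries of WT mice and 4 of quadruple KO mice (KO in the library names), which carry knockouts of Bcan, Ncan, Tnc and Tnr, and with the letters A to D in each genotype. The quadruple KO line was made by crossing the lines of the single mutants, and the WT mice came from the inbred strain 129S2/SvPasCrl, which the study names as the background strain. The retinae were pooled before the RNA was extracted, the mice of each library are not listed in the sources used here, and the spread between libraries may therefore be partly technical. Over the listed genes, the normalized counts summed to between 36601800 and 42201700 in WT and between 36134200 and 37213900 in KO libraries, to 6 significant digits. From the spacing of low values, 1 read was worth between 0.709 and 1.77 normalized counts, although no more than 68.6% of the low values of a library lay on whole steps.

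The libraries were checked for the targeted genes, the tissue and other cells of the eye. Ncan was at 569 to 789 normalized counts in WT and at 0.853 or less in KO libraries, Bcan at 197 to 327 and 11.5 to 22.1, and Tnr at 5578 to 6317 and 2374 to 2580. Tnc overlapped between the genotypes, with 881 to 1592 in WT and 1024 to 1249 in KO libraries, and gene counts alone do not show whether these transcripts are intact. The study reports the loss of part of the WT Tnc sequence in the quadruple KO. Its western blot detected no Tnc protein in postnatal KO retinae. All 3 bipolar cell markers were listed, and their summed level was 28084 to 32279 normalized counts in WT and 30550 to 32981 in KO libraries. Of the markers of pigment epithelium and lens, Rpe65 and Mip were not in the table, and the summed levels of the lists for cones, bipolar cells, amacrine cells, Mueller glia, pigment epithelium, lens, endothelium, microglia, and sclera and fibroblasts overlapped between the genotypes. The summed level of the 3 ganglion cell markers was 18380 to 20598 normalized counts in WT and 14697 to 17336 in KO libraries. These ranges did not overlap between the genotypes, although none of the 3 genes passed the test described further on. The sum of the Mueller glia markers was 155611 and 150979 in WT B and WT C and 98831 to 115923 in the other 6 libraries. The part of these cell types in the results was not tested, and the sum of 1 further marker list is not given, so ganglion cells are not shown to be the only class that differed. WT B and WT C stood apart from the other 6 libraries on the first principal component, which held 50.9% of the variance. In bulk retina, fewer cells of a type and less RNA per cell cannot be told apart.

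The 4 protein-coding genes have unrelated tasks. Npc1 encodes a membrane protein of late endosomes and lysosomes that, together with the soluble protein Npc2, moves cholesterol from taken-up lipoproteins out of the lysosome, and its loss causes Niemann-Pick disease type C, in which neurons degenerate. Usp14 is a deubiquitinase that docks on the regulatory particle of the proteasome and trims ubiquitin chains from substrates before they are degraded. Esco1 is an acetyltransferase of the cohesin subunit Smc3, and its acetylation stabilizes cohesin on chromatin. Cables1 is an adaptor protein that links cyclin-dependent kinases such as Cdk5 with tyrosine kinases of the Abl family, and it has been studied in neurite growth and in cell cycle control. The other 4 genes are noncoding, and no function is given for them here. 4930563E18Rik, Gm6277 and Gm49970 are annotated as long noncoding RNAs and Gm49968 is of the class TEC, which holds transcripts whose status awaits experimental evidence.

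On GRCm39 the genes form 2 intervals. The first, from 9993066 to 10711832 (0.719 Mb), holds Usp14, Esco1 and 4930563E18Rik. The second begins 1.24 Mb further on, runs from 11953431 to 12998343 (1.04 Mb), and holds Gm6277, Cables1, Gm49968, Npc1 and Gm49970. In the first interval 2 genes had lower and 1 had higher levels in KO retinae, and in the second the numbers were 4 and 1. Usp14, Esco1, Gm6277 and Npc1 are on the minus strand and the other 4 genes on the plus strand, so lower levels were found for genes of either strand.

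Npc1 was the most abundant of the 8 genes. Npc1 (ENSMUSG00000024413.15, chromosome 18 from 12322749 to 12369550) had 7495, 6251, 6917 and 7604 normalized counts in WT A to D and 4891, 5088, 5102 and 5063 in KO A to D. The KO libraries lay close together, below the lowest WT library, which was WT B. The means were 7067 ± 622 in WT and 5036 ± 97.8 in KO retinae (SD, n = 4), and KO retinae had 71.3% of the WT level. On the scale of log2(normalized count + 1) the difference was -0.48 (standard error 0.08). Against WT A and WT D alone it was -0.58, because WT B and WT C had the lower Npc1 levels among the WT libraries.

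The lower levels of Usp14 and Esco1 were of similar size to that of Npc1. Usp14 (ENSMUSG00000047879.18, from 9993066 to 10045119) had 2790, 2557, 2508 and 2418 normalized counts in WT A to D and 1989, 1921, 1894 and 1914 in KO A to D. Esco1 (ENSMUSG00000024293.17, from 10565190 to 10610374) had 3648, 3757, 3894 and 3237 in WT A to D and 2767, 2510, 2693 and 2656 in KO A to D. In neither gene did the genotypes overlap, although WT D was the lowest WT library of both. Usp14 was at 2568 ± 159 normalized counts in WT and 1930 ± 41.4 in KO retinae (SD, n = 4 per genotype; log2 difference -0.41, standard error 0.07). For Esco1 the means were 3634 ± 283 and 2656 ± 108 (SD, n = 4 per genotype; log2 difference -0.45, standard error 0.08). KO retinae thus had 75.1% of the WT level of Usp14 and 73.1% of that of Esco1.

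Cables1 had the lowest remaining share of the 4 coding genes. Cables1 (ENSMUSG00000040957.16, from 11972240 to 12078687) had 430, 633, 671 and 468 normalized counts in WT A to D and 185, 227, 230 and 226 in KO A to D. WT B and WT C were the high WT libraries and KO A was the low KO library, and the lowest WT value was well above the highest KO value. With 550 ± 119 normalized counts in WT and 217 ± 21.2 in KO retinae (SD, n = 4 per genotype), 39.4% of the WT level was measured (log2 difference -1.32, standard error 0.16). Against the mean of WT A and WT D the share was 48.3%, and the log2 difference was then -1.05. The size of this difference therefore depended on WT B and WT C, which had 1.45 times the Cables1 level of WT A and WT D.

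**Figure D1:**
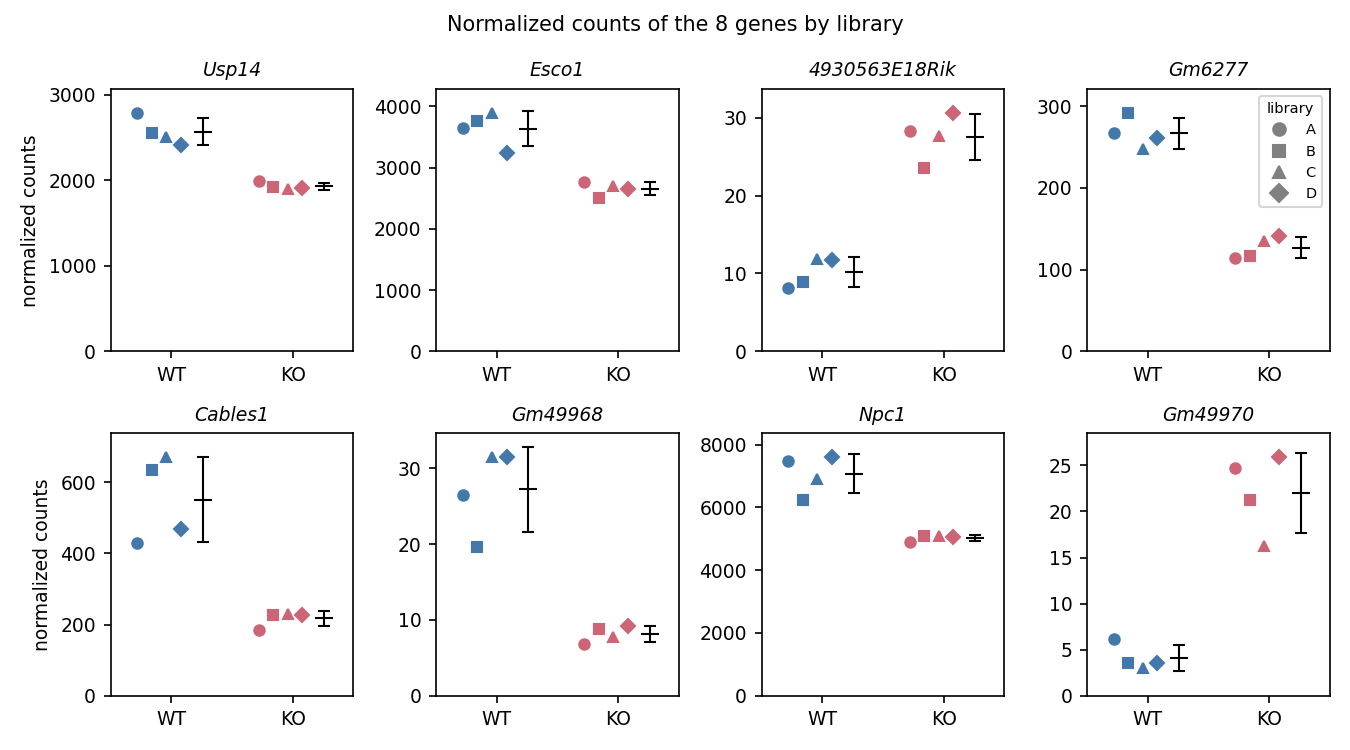
Normalized counts of each of the 8 genes (vertical axis from 0, its own scale in each panel) in the 4 WT (blue) and 4 KO (red) libraries, with a symbol for each library letter and the mean ± SD in black beside each group. In 6 panels the red points lie below all blue points, and in the panels of 4930563E18Rik and Gm49970 they lie above.

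Of the 4 noncoding genes, Gm6277 and Gm49968 were lower in KO retinae. Gm6277 (ENSMUSG00000097440.3, from 11953431 to 11973926) had 267, 292, 247 and 261 normalized counts in WT A to D and 114, 117, 135 and 141 in KO A to D. The 4 WT libraries differed little, and WT B and WT C did not stand apart (1.02 times the mean of WT A and WT D). The means were 267 ± 18.7 and 127 ± 13.3 normalized counts (SD, n = 4 per genotype), which left 47.6% of the WT level (log2 difference -1.07, standard error 0.11). Gm49968 (ENSMUSG00000117430.2, from 12046188 to 12048960) was low in all libraries, with 26.4, 19.6, 31.5 and 31.4 normalized counts in WT A to D and 6.83, 8.79, 7.78 and 9.25 in KO A to D. The log2 difference was -1.61 (standard error 0.25), and 30.0% of the WT mean was measured.

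4930563E18Rik and Gm49970 had higher levels in KO retinae. 4930563E18Rik (ENSMUSG00000097387.2, from 10706860 to 10711832) had 8.14, 8.85, 11.9 and 11.7 normalized counts in WT A to D and 28.2, 23.5, 27.7 and 30.6 in KO A to D. The KO mean of 27.5 ± 2.96 was 2.71 times the WT mean of 10.2 ± 1.94 (SD, n = 4 per genotype; log2 difference 1.36, standard error 0.23). Gm49970 (ENSMUSG00000117494.2, from 12995486 to 12998343) had 6.10, 3.57, 2.998 and 3.59 normalized counts in WT A to D and 24.8, 21.2, 16.3 and 25.9 in KO A to D. Its WT values correspond to a few reads per library, and its KO mean of 22.04 ± 4.34 was 5.42 times the WT mean of 4.07 ± 1.39 (SD, n = 4 per genotype; log2 difference 2.20, standard error 0.30). A pseudocount of 1 makes such differences smaller on the log2 scale than the ratio of the means.

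In the fit of all genes with limma, 77 of 17636 genes passed the threshold, an adjusted p under 0.05 (0.437%), of which 31 had lower (0.176%) and 46 had higher levels (0.261%) in KO retinae. All 8 genes were among them, and nothing is read from this count because they had been chosen from this comparison. In all 8, the 4 KO values lay entirely below or above the 4 WT values, a pattern that 9.74% of all genes tested showed, 3.58% with lower and 6.16% with higher values in KO retinae. The limma adjusted p nearest to the threshold among the 8 genes was 0.0456 for 4930563E18Rik, and the lowest among the other genes of the neighborhood was 0.121 for Thoc1. Without KO A, KO B or KO D the number of the 8 genes past the threshold was 2, without KO C, WT A or WT C it was 3, and without WT B or WT D it was 5. Cables1 and Gm6277 remained past the threshold in each of these 8 fits. The fits reuse libraries from which the 8 genes had been chosen, so they are no independent test of any of them.

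Per kilobase of annotated exons, the levels of the 8 genes spanned a wide range. In WT the order was Npc1 with 619 ± 54.5 normalized counts per kilobase, Esco1 with 463 ± 36.1, Usp14 with 280 ± 17.3, Cables1 with 53.0 ± 11.5, Gm6277 with 49.0 ± 3.43, Gm49968 with 9.83 ± 2.02, 4930563E18Rik with 6.54 ± 1.25 and Gm49970 with 1.42 ± 0.485 (SD, n = 4). The ranges of Cables1 and Gm6277 overlapped, as did those of Gm49968 and 4930563E18Rik, and the other neighbors in this order did not. Among the genes tested, Npc1 was above 89.0% by its mean level per kilobase, Cables1 above 33.0% and Gm49970 above 5.59%. In KO retinae, Npc1, Esco1 and Usp14 kept their places with 441 ± 8.57, 338 ± 13.8 and 210 ± 4.51 normalized counts per kilobase (SD, n = 4). Gm6277 (23.3 ± 2.44), Cables1 (20.9 ± 2.04) and 4930563E18Rik (17.7 ± 1.90) followed with overlapping ranges between neighbors, and Gm49968 was last with 2.94 ± 0.389 behind Gm49970 with 7.71 ± 1.52.

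All but Esco1 overlap another gene of the annotation, and for these the reads of the 2 genes may not have been told apart. The libraries were made with a directional kit, but whether strand was used when reads were counted is not stated in the sources used here. The 5′ ends of Gm6277 and Cables1 overlap on opposite strands over 1687 bases, of which 1351 are exonic in both, and this is 24.8% of the exonic length of Gm6277. Gm49968 lies within Cables1 on the same strand and shares no exonic base with it, so that it occupies intronic sequence of Cables1. Usp14 shares 2503 exonic bases with Thoc1 on the opposite strand, 4930563E18Rik shares 336 with Abhd3, Npc1 shares 1086 with Rmc1, and Gm49970 shares 855, or 29.9% of its exonic length, with Osbpl1a.

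The 3 genes at the Cables1 locus were compared within each library. The ratio of Cables1 to Gm6277 normalized counts was 1.61, 2.17, 2.71 and 1.80 in WT A to D and 1.62, 1.93, 1.70 and 1.603 in KO A to D. These ranges overlapped, and the 2 highest ratios were those of WT B and WT C. The ratio of Cables1 to Gm49968 was 16.3, 32.3, 21.3 and 14.9 in WT A to D and 24.5 to 29.6 in KO retinae. These ranges overlapped only through WT B, where Gm49968 had 19.6 normalized counts. WT A, WT C and WT D lay below all KO libraries in this ratio. Gm49968 was low in all libraries, and whether the 3 genes differed by equal shares was not tested.

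The overlapping partners outside the 8 genes did not pass the threshold, and their levels are given beside those of the genes they overlap. Thoc1, a subunit of the THO complex of mRNA export, had 977, 948, 1063 and 917 normalized counts in WT A to D and 683, 526, 759 and 658 in KO A to D (log2 difference -0.58, standard error 0.12, limma adjusted p = 0.121). Its genotypes did not overlap, and its difference had the same sign as that of Usp14. Abhd3, a phospholipase gene that shares its 5′ region with 4930563E18Rik, had 653 ± 54.6 normalized counts in WT and 520 ± 12.4 in KO retinae (SD, n = 4 per genotype; log2 difference -0.32, limma adjusted p = 0.301), opposite in sign to 4930563E18Rik. The ratio of Abhd3 to 4930563E18Rik was 51.0 to 78.8 in WT and 17.0 to 21.9 in KO retinae. Rmc1 had 799 ± 216 and 814 ± 68.5 normalized counts (SD, n = 4 per genotype; log2 difference 0.06, limma adjusted p = 0.848). The ratio of Usp14 to Thoc1 was 2.36 to 2.86 in WT and 2.49 to 3.65 in KO retinae. That of Npc1 to Rmc1 was 12.2, 6.08, 7.35 and 12.3 in WT A to D and 5.36 to 6.75 in KO retinae. Both of these ratios overlapped between the genotypes, that of Npc1 to Rmc1 only through WT B.

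Osbpl1a, which encodes an oxysterol-binding protein-like protein and contains Gm49970 on the opposite strand, had 1612, 2382, 2279 and 1609 normalized counts in WT A to D and 2422, 2544, 2515 and 2416 in KO A to D. WT A and WT D were far below the KO libraries and WT B and WT C just below them. Over all libraries the log2 difference was 0.35 (standard error 0.14, limma adjusted p = 0.301), and against WT A and WT D alone it was 0.62 and passed the threshold (limma adjusted p = 0.00021, and 0.00021 to 0.56 over all alternative fits). Gm49970 did not follow this division of the WT libraries, since WT A had the highest WT value and WT D the same level as WT B. The ratio of Osbpl1a to Gm49970 was 264 to 760 in WT and 93.3 to 155 in KO retinae.

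**Figure D2:**
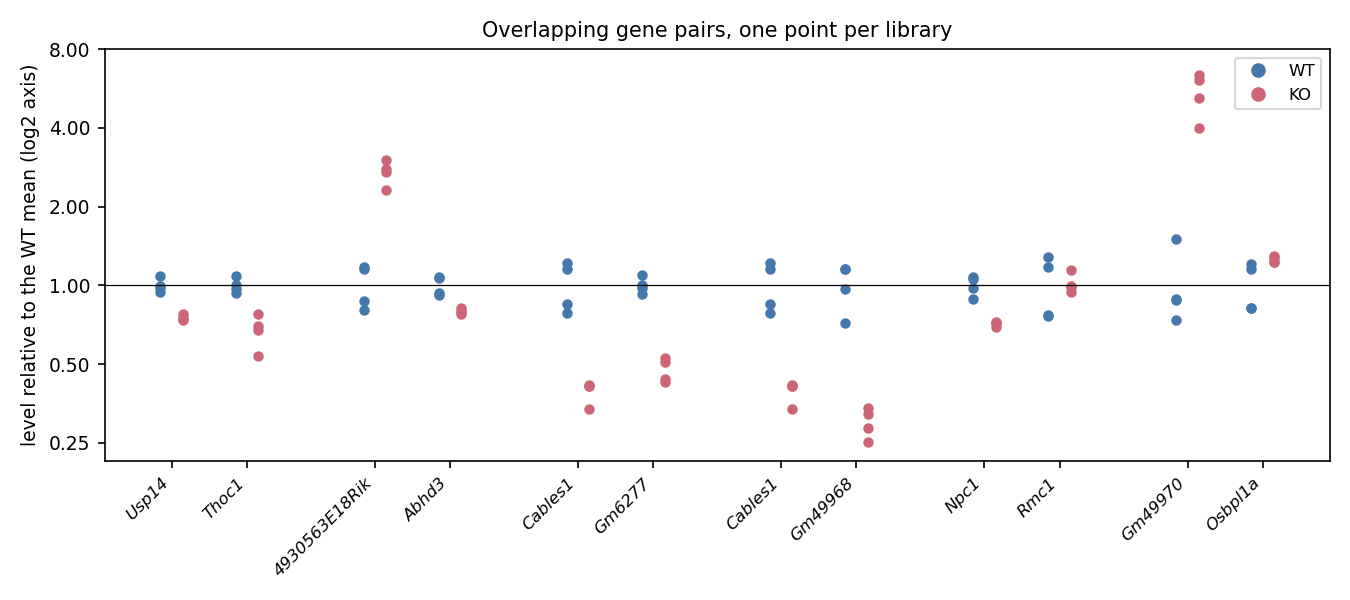
Level of each gene relative to its own WT mean (log2 axis) for 6 pairs of overlapping genes, with 1 point per library, WT in blue and KO in red. Cables1, Gm6277 and Gm49968 have all KO points below their WT points, whereas 4930563E18Rik and Gm49970 have them above while Abhd3 lies below and Osbpl1a just above its WT points.

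The other genes of the neighborhood are described from the same fit. From 1 Mb below Usp14 to 1 Mb above Gm49970, 23 further genes were tested, and none passed a limma adjusted p under 0.05, compared with 0.437% of all genes. This holds for the limma fit only, since the study's own comparison with DESeq2 reports Lama3, which is among them, as significantly lower. At an unadjusted limma p under 0.05 there were 9 of the 23, compared with 16.6% of all genes, and in 7 (30.4%, compared with 9.74% of all genes) the genotypes did not overlap (4 lower and 3 higher in KO retinae). Those lower were Thoc1, Abhd3, Mib1 and Riok3, and those higher were Rock1, Rbbp8 and Osbpl1a. Of these, Thoc1, Abhd3 and Osbpl1a share exonic bases with Usp14, 4930563E18Rik and Gm49970, and reads of these pairs may not have been told apart. The 23 genes are what was left after the 8 had been taken out on the same comparison, so their count is not independent of that choice. Their median log2 difference was 0.05, compared with -0.00018 for all genes tested, and their values ran from -0.71 (Lama3) to 0.82 (Rbbp8). With a window of 3 Mb on each side, 36 genes were tested and none was past the threshold.

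Within the first interval, Snrpd1, a core protein of the spliceosome next to Esco1, had 407 ± 160 normalized counts in WT and 592 ± 35.6 in KO retinae (SD, n = 4 per genotype; log2 difference 0.63, limma adjusted p = 0.301). Its WT values of 520 and 568 in WT A and WT D, against 246 and 295 in WT B and WT C, gave the wide spread. Rock1, a kinase gene beside Usp14, had 2269 ± 193 and 2599 ± 69.8 normalized counts (SD, n = 4 per genotype; log2 difference 0.20, limma adjusted p = 0.301). Greb1l, between Usp14 and Esco1, had a log2 difference of 0.21 and overlapping genotypes (limma adjusted p = 0.478).

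Between the intervals, Mib1, an E3 ubiquitin ligase of Notch ligands, had 8632 ± 1232 normalized counts in WT and 6370 ± 222 in KO retinae (SD, n = 4 per genotype; log2 difference -0.43, limma adjusted p = 0.253). Rbbp8, a DNA end resection factor, had 111, 76.9, 83.1 and 145 in WT A to D and 197, 176, 183 and 160 in KO A to D. In this gene WT D, the highest WT library, came near the lowest KO library, and the log2 difference of 0.82 (standard error 0.20) had a limma adjusted p of 0.263. Without WT D its limma adjusted p was 0.038, and Rbbp8 was then the only one of the 23 genes past the threshold. Over all alternative fits its limma adjusted p ran from 0.038 to 0.56. Gm50069, a long noncoding RNA gene also between the intervals, had a log2 difference of 0.20 and overlapping genotypes (limma adjusted p = 0.540).

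Within the second interval, Riok3, a kinase gene between Cables1 and Npc1, had 4382 ± 1189 and 2759 ± 213 normalized counts (SD, n = 4 per genotype; log2 difference -0.63, limma adjusted p = 0.301). WT B and WT C had 5222 and 5561, compared with 3607 and 3139 in WT A and WT D. Lama3, a laminin chain gene, had 170 ± 38.1 and 102 ± 17.8 (SD, n = 4 per genotype; log2 difference -0.71, limma adjusted p = 0.301) with overlapping genotypes. The study, which used DESeq2, reports Lama3 as significantly lower in KO retinae. Cabyr was low, with 5.24 to 32.4 normalized counts in WT and 24.9 to 27.6 in KO retinae, and its genotypes overlapped. Its log2 difference was 0.76 (standard error 0.45, limma adjusted p = 0.347). Tmem241, Ankrd29 and Ttc39c had log2 differences of 0.03, 0.05 and -0.17. Tmem241, the coding gene that follows Cables1, had 203 ± 36.7 and 205 ± 26.4 normalized counts (SD, n = 4 per genotype; limma adjusted p = 0.928).

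Beyond the outermost genes, Colec12, Ccny and Gm50055 below Usp14 had log2 differences of -0.50, -0.33 and 0.65, and Impact and Zfp521 above Gm49970 had 0.15 and 0.09. Gm50055 was low, with 2.99 to 17.3 normalized counts in WT and 11.1 to 20.4 in KO retinae (standard error 0.49). The genotypes overlapped in each of the 6 genes tested outside the intervals and the stretch between them. On the rest of chromosome 18, 4 of 470 genes tested passed the threshold (0.851%, compared with 0.437% of all genes), namely Sap130, Stard4, Kcnn2 and Lman1. The nearest of them, Sap130, starts at 31767370.

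**Figure D3:**
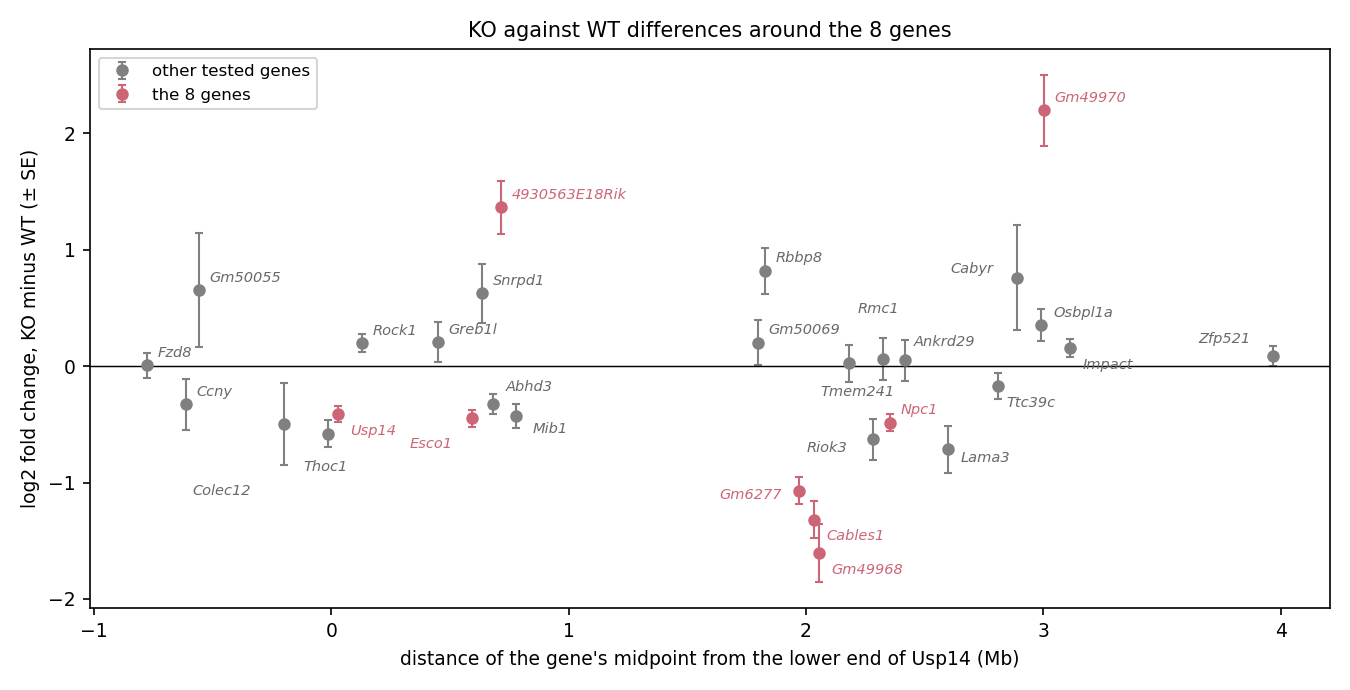
Log2 fold change of KO minus WT with its standard error (vertical axis) against the distance of each gene's midpoint from the lower end of Usp14 in Mb, with the 8 genes in red and the other tested genes in gray. The small nuclear RNA gene Gm26244 (standard error 1.68) is left out. Red points below 0 lie near gray points on both sides of 0, and Gm49970 at 2.20 stands far above Osbpl1a at 0.35.

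The genes that work with the 4 coding genes were looked up in 4 lists with 107 genes, of which 104 were tested and 1 passed the threshold (0.962%, compared with 0.437% of all genes). It was Stard4, a sterol carrier that moves cholesterol between membranes, which is itself on chromosome 18 from 33332197 to 33346942. Stard4 (ENSMUSG00000024378.10) had 1768, 2133, 2171 and 1626 normalized counts in WT A to D and 1103, 954, 1009 and 1116 in KO A to D. Stard4 fell to a KO mean of 1045 ± 77.2 from a WT mean of 1925 ± 270 (SD, n = 4 per genotype; log2 difference -0.87, standard error 0.11, limma adjusted p = 0.0068), and all KO libraries lay below all WT libraries. Stard4 remained past the threshold whichever library was left out (8 fits). Over all alternative fits its limma adjusted p ran from 0.00029 to 0.12. The lists were chosen with earlier results of these data known, so these values are not an independent test of Stard4.

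Of the 34 tested genes of sterol handling, 1 passed the threshold (Stard4, lower), and 5 had an unadjusted limma p under 0.05. Their median log2 difference was 0.02. Npc2, the soluble partner of Npc1, had 865 ± 14.9 normalized counts in WT and 886 ± 32.7 in KO retinae (SD, n = 4 per genotype; log2 difference 0.03, standard error 0.07, limma adjusted p = 0.778). Npc1l1, the intestinal sterol uptake protein related to Npc1, was low with 20.3 ± 6.65 and 31.3 ± 7.62 (SD, n = 4 per genotype; log2 difference 0.62, limma adjusted p = 0.309). Lamp1, a lysosomal membrane protein, had 5065 ± 643 and 6091 ± 179 normalized counts (SD, n = 4 per genotype; log2 difference 0.27, limma adjusted p = 0.301). Srebf1, a transcription factor of lipid synthesis, had 7104 ± 1135 and 5676 ± 260 (SD, n = 4 per genotype; log2 difference -0.31, limma adjusted p = 0.301), with WT A at 5922 close to KO A at 5872.

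Of the 17 genes of cohesin and its acetylation, 14 were tested and none passed the threshold by limma, with 4 at an unadjusted p under 0.05 and a median log2 difference of 0.06. Esco2, the other acetyltransferase of Smc3, did not enter the fit. Smc3, the substrate of Esco1, had 4256 ± 395 normalized counts in WT and 4923 ± 130 in KO retinae (SD, n = 4 per genotype; log2 difference 0.21, limma adjusted p = 0.301). Nipbl, the cohesin loader, had a log2 difference of 0.22 (limma adjusted p = 0.301). Stag1, a cohesin subunit, had 4397, 6609, 7968 and 3935 normalized counts in WT A to D against 3302 to 3998 in KO retinae (log2 difference -0.63, limma adjusted p = 0.301), so that WT B and WT C made most of its difference.

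All 39 genes of the proteasome and its deubiquitinases were tested, and none passed the threshold by limma, with 3 at an unadjusted p under 0.05 and a median log2 difference of -0.06. Uchl5 and Psmd14, the other deubiquitinases of the regulatory particle beside Usp14, had log2 differences of -0.06 (limma adjusted p = 0.751) and -0.15 (limma adjusted p = 0.308). Psmd14 had 1582 ± 111 normalized counts in WT and 1426 ± 27.2 in KO retinae (SD, n = 4 per genotype). The 3 genes of this list with the smallest p, Psmb2, Psma4 and Psmd3, had log2 differences of 0.21, 0.37 and 0.14 (limma adjusted p = 0.301 for each).

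None of the 17 genes of the list around Cdk5, Cdk2 and the Abl kinases passed the threshold by limma, with 4 at an unadjusted p under 0.05 and a median log2 difference of -0.03. Cables2, the paralog of Cables1, had 1032, 769, 904 and 1121 normalized counts in WT A to D and 1180, 1264, 1290 and 1176 in KO A to D. Its KO libraries all lay above the WT libraries, with a log2 difference of 0.37 (standard error 0.12) that did not pass the threshold (limma adjusted p = 0.301). Cdkn1b, an inhibitor of cyclin-dependent kinases, and Tdrd7, a Tudor domain protein that binds Cables1, had log2 differences of 0.35 and 0.16 (limma adjusted p = 0.301 for each).

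**Figure D4:**
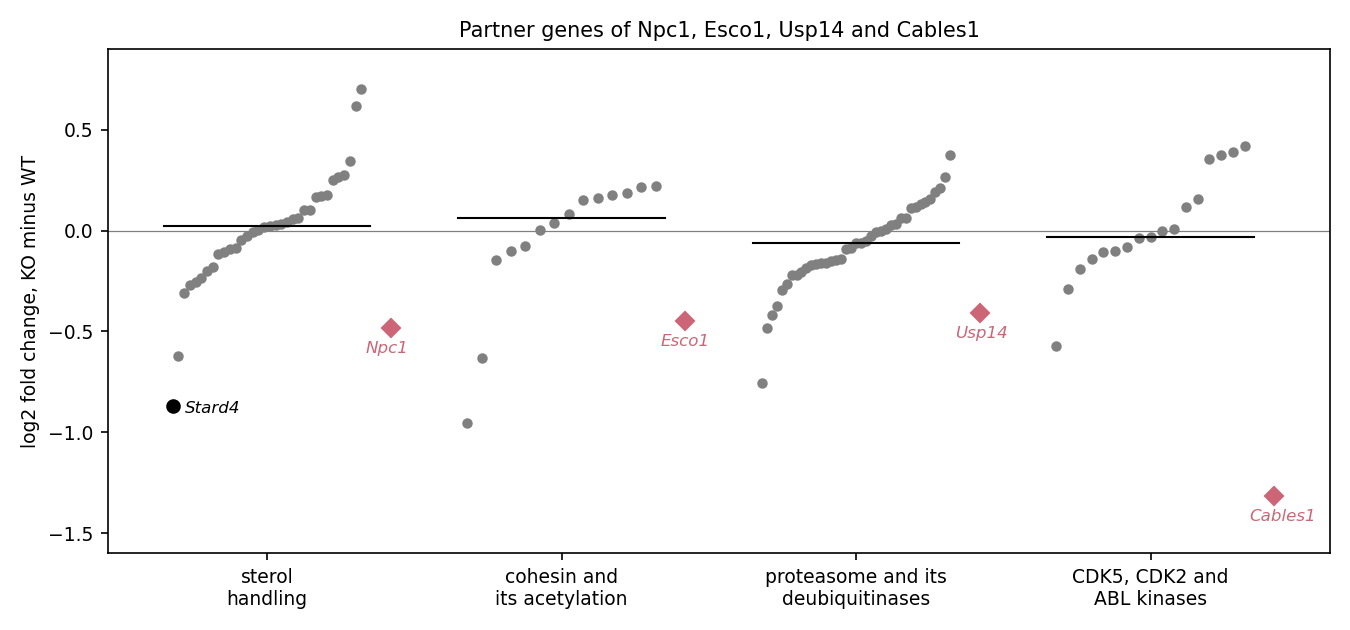
Log2 fold change of KO minus WT for the tested genes of 4 lists (gray points in order of size, black line at the median), with Npc1, Esco1, Usp14 and Cables1 as red diamonds beside the list of their partners. Stard4 (black point, -0.87) is the gene of these lists that passed the threshold, and the 4 medians lie between -0.06 and 0.06.

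The genes whose log2 levels over the 8 libraries were most like those of Usp14, among 17628 genes tested outside the group, were Dennd1b (Pearson r = 0.99), Kcnn2 (0.99) and Tnr (0.98). Tnr is among the targeted genes, and Kcnn2 is on chromosome 18. For Npc1 they were 4930426I24Rik (0.98), P2rx7 (0.96) and Slc5a8 (0.96), and for Cables1 D630033O11Rik (0.99), Zmat5 (0.98) and Hmox2 (0.98). These values are a description over 8 libraries that share the division by genotype, and all 9 genes had lower fitted levels in KO retinae.

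Once the mean of each genotype had been taken out, the 8 genes showed no common direction. Over the 28 pairs, Pearson r of the deviations in the 8 libraries ran from -0.69 (Cables1 and Gm49970) to 0.77 (Usp14 and Gm49970) with a median of -0.04, and 12 pairs were above 0. Cables1 and Gm6277, whose 5′ ends overlap, had r = 0.24, and Npc1 and Cables1 had r = -0.63, with Cables1 high and Npc1 low in WT B and WT C. The pair Npc1 and Gm49968 had r = 0.72. With 8 libraries and low counts for Gm49970, Gm49968 and 4930563E18Rik, these values are only a description.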

How the data were processed

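Reads were trimmed by the authors (Trim Galore 0.6.7), aligned to GRCm39 with STAR 2.7.9a, quantified genes with Salmon 1.5.2 and normalized the estimated counts with DESeq2 1.32.0 in R 4.1.1. The deposited table holds normalized counts per library; its columns of fold changes and p-values from the authors' own comparison were not used. The 8 libraries were mapped to genotypes by the names of columns and samples. Normalized counts plus a pseudocount of 1 were put on the log2 scale, genes with a mean of at least 10 were kept, and genotypes were compared with limma 3.58.1 (lmFit, eBayes with trend) in R 4.3.3, without covariates, with Benjamini-Hochberg adjustment over 17636 genes. This test was fixed for normalized counts, and a count model was not fitted because whole reads were not recovered. Intervals of depth are not given for this reason. The steps were checked on simulated data. Positions and exonic lengths came from GENCODE M39 on GRCm39, matched by identifier for 17969 of 18058 genes; the authors' annotation version is not given in the sources used here.

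The members and gene lists were chosen with earlier results of these data known. Neighbors were named by a fixed rule: in each interval the tested genes inside it and the nearest 3 on each side, up to 10 by size of difference. Rock1, Tmem241, Ankrd29, Rmc1 and the other called genes of chromosome 18 were named outside it, after their values were seen. From each list, the closest relatives of the 4 coding genes and the 3 genes with the smallest p were named. The list of the 3 most alike genes used Pearson r of log2 levels. Alternatives were another scaling, pseudocount, filter, prior or weighting, the letter as a block, other windows, WT A and WT D alone, and each library left out. Plots were made with Python 3.11.15 and matplotlib 3.10.9. Of 11 lists of cell type markers, the summed level of 1 is not reported here.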

Additional observations from a re-analysis of the deposited data

Results flagged for a closer look

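Of 52 groups of 4 libraries examined for the 8 genes and their named or overlapping neighbors, 2 held a library far from the other 3, and about 1 in 20 groups is found in this way by chance. Cables1 had 185 normalized counts in KO A against 226 to 230 in the other quadruple KO libraries, a gap of 0.921 of the range. Snrpd1 had 539 in KO D against 603 to 615 in the others, a gap of 0.843 of the range.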

How the results depend on the processing

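No direction of the 8 genes reversed in any fit, and their log2 differences ran over all fits from -1.43 to -1.05 for Cables1, -1.12 to -1.02 for Gm6277, -1.75 to -1.03 for Gm49968, -0.58 to -0.45 for Npc1, -0.50 to -0.37 for Esco1, -0.47 to -0.37 for Usp14, 0.90 to 1.49 for 4930563E18Rik and 1.18 to 2.44 for Gm49970. The number of the 8 past the threshold was 5 with quantile normalization, 5 with a minimum mean of 100, where the other 3 were not tested, and 2 to 5 with 1 library left out. With the letter as a replicate block it was 1 (Cables1), all genes called numbered 51 and the pathway genes called 0 (Stard4, limma adjusted p = 0.12). Over all genes tested, the deviations of samples with the same letter from their genotype means had r from -0.11 to 0.10. The labels do not say what the letters stand for, and whether they mark a pairing was not tested. With array weights 143 genes were called over all genes tested, among them 3 of the neighbors (Lama3, Mib1 and Osbpl1a). This fit gave WT B and WT C weights of 0.164 and 0.156, compared with 0.96 to 2.86 for the other libraries. Against WT A and WT D alone 1 neighbor was called (Osbpl1a), and with 1 library left out 0 to 1. Why these counts moved was not tested. The 8 genes were chosen from the same libraries, so the counts of them past the threshold are a description only. Whole reads are not known, which limits the genes with under 40 normalized counts most.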
